A study of Mus musculus with 8 samples.

Results

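Bone marrow derived macrophages (BMDM) of C57BL/6 mice that had received lipopolysaccharide (LPS) and ATP were given auranofin or vehicle, and their messenger RNA was sequenced with a stranded kit. The genes described here are those whose mean over the 4 BMDM libraries reached 1 FPKM. FPKM stands for the fragments of a gene, scaled to the length of its transcripts and to the size of the library. The rule kept 9232 of the 17408 genes listed for these cells, while 19382 genes are listed for either cell type of the series. Of the 8 libraries of the series, 2 are BMDM with vehicle, 2 are BMDM with auranofin, and the others are from hepatic stellate cells (HSCs).

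All 4 BMDM libraries shared LPS at 100 ng/mL and ATP at 1 mM, so none shows macrophages without these signals. The sample labels give auranofin at 0.1 µM, whereas the description of the experiment gives 0.3 µM, and the values below can be tied to neither. The labels give no time. In the protocol for such cultures LPS came 4 h before ATP, and ATP and auranofin acted together for 1 h. The marrow came from male mice of 8 weeks and was grown with M-CSF for 7 days. The labels do not say whether 2 libraries of a group came from separate mice or cultures, so p-values measure the spread between these libraries, which may be technical. The auranofin libraries are called AF1 and AF2 after their replicate numbers.

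Auranofin is a gold compound, given for rheumatoid arthritis, that binds thiol and selenol groups and is best known for blocking thioredoxin reductase. Cells meet electrophiles and oxidants with NRF2, a transcription factor that KEAP1 holds back until its cysteines are modified, and that drives glutathione, thioredoxin, heme and iron genes from antioxidant response elements. Damaged proteins release HSF1, which drives chaperone genes from heat shock elements. In macrophages, LPS acts through TLR4 on NF-kB and interferon regulatory factors and induces the cytokines and the inflammasome genes, and ATP acts through P2RX7 to assemble the NLRP3 inflammasome, in which caspase-1 matures IL-1β.

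The 2 auranofin libraries were unlike each other, and AF2 lay close to the vehicle libraries. AF1 and AF2 differed by at least 2-fold in 751 genes (8.13%). The vehicle libraries differed by as much in 36 genes (0.390%), AF2 differed from them in 38 and 24 genes, and AF1 in 742 and 747. The median absolute difference of a gene on the log2(FPKM + 1) scale was 0.31 between AF1 and AF2, 0.06 between the vehicle libraries, and 0.07 between AF2 and either of them. The labels give both auranofin libraries the same treatment, and the cause of their difference was not tested. Each is therefore given against the 2 vehicle libraries, and a mean over AF1 and AF2 is used only where stated. Estimated depths were 27.7 to 35.0 fragments for each FPKM on 1 kb of transcript, with AF1 at 35.0 and AF2 at 34.6. These estimates are approximate. Macrophage markers were high in every library, with a summed level over 15 genes of 13410 to 13905 FPKM with vehicle, 15623 in AF1 and 13899 in AF2. Of 10 neutrophil markers, 6 passed the filter. Their whole list summed to 207 and 215 FPKM with vehicle, 280 in AF1 and 292 in AF2, and all 6 lay above the vehicle mean in both auranofin libraries, while Ly6g, Mpo and Elane stayed under 1 FPKM in all 4. The part of such cells in the results was not tested. In bulk RNA, fewer cells of a type and less RNA for each cell cannot be told apart. Markers of dendritic cells, lymphocytes, mast cells, fibroblasts, endothelial cells and erythroid cells summed to at most 13.5 FPKM in any library. The largest of these sums, of the endothelial markers, was nearly all Kdr, which was called lower in AF1 with 12.28 and 12.04 FPKM with vehicle, 5.16 in AF1 and 10.6 in AF2. Among their defining genes, Cd3e, Cd3d and Cpa3 are not listed for these cells, Emcn was at 0 in all 4 libraries, and Cd8a did not pass 0.0215 FPKM. Besides Kdr, the members Ccr7, Cd4, Col1a1, Col1a2 and Hba-a2 passed the filter. The fibroblast markers summed to 8.07 and 7.17 FPKM with vehicle, 5.62 in AF1 and 11.3 in AF2.

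A gene was called in an auranofin library when it lay beyond both vehicle libraries and at least 2-fold from their mean log2(FPKM + 1). This is a count at a fold, not a test. AF1 had 482 genes called higher, 5.22% of the genes tested, and 239 called lower, 2.59%. AF2 had 10 genes called higher, 0.108%, and 7 called lower, 0.0758%. Over all genes tested the median of AF1 was shifted to 0.18 above vehicle, against 0.00 in AF2. The size of this shift depended on the filter, with 0.055 without one and 0.13 at a mean of at least 5 FPKM. With each library centred on its median, AF1 had 329 genes higher and 426 lower, and with quantile normalization 360 and 347, so which direction prevailed in AF1 depended on the scaling. At 4-fold the calls in AF1 were 73 higher and 16 lower. A low gene cannot fall far on this scale. Of the genes called higher, 70 had a vehicle mean under 1 FPKM and passed the filter only through their level with auranofin. Of the list members called higher below, these were Me1, Hspa1l, Hspb1, Ddit4, Fosb, Fosl1 and Eno1b, so that their part in the counts follows from the filter. limma of 1 library against 2 put 65.0% of all genes under a Benjamini-Hochberg adjusted p of 0.05 in AF1 and 0.141% in AF2. It takes its spread from the 2 vehicle libraries and compares libraries, not conditions.

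**Figure D1:**
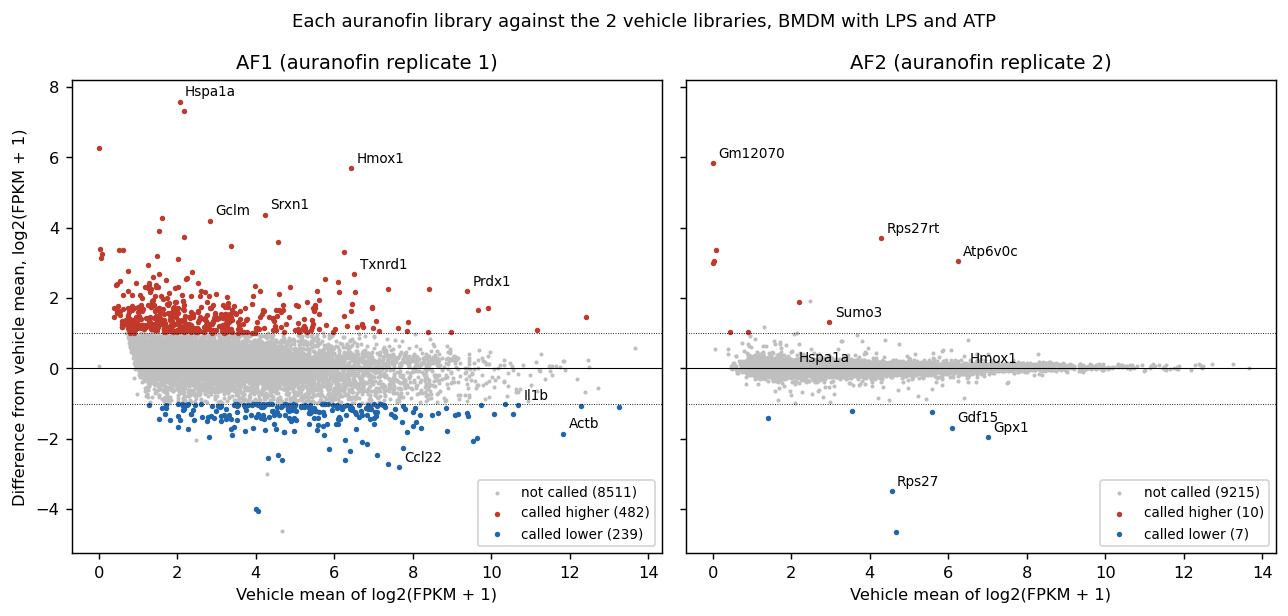
Difference of each gene from the vehicle mean (y axis, log2(FPKM + 1)) against its vehicle mean (x axis, the same scale) for AF1 on the left and AF2 on the right. Each point is 1 of 9232 genes, dotted lines mark 2-fold, and the colours mark genes called higher (482 and 10) or lower (239 and 7). The points of AF1 spread widely with Hspa1a and Hmox1 at the top, whereas those of AF2 keep near the line at 0.

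The genes called in AF1 were near vehicle in AF2. Of the 482 genes called higher in AF1, 467 (96.9%) lay within 1.5-fold of the vehicle mean in AF2, with a median difference of 0.01. Of the 239 called lower, 234 (97.9%) did so, with a median of -0.01. Among all genes tested the share was 99.3%. Genes called higher in AF1 had a median level of 3.54 FPKM with vehicle and those called lower had 31.3 FPKM, against 8.05 FPKM for all genes. Their transcripts had a median of 7 and 8 exons, against 9 for all genes, and 4.91% and 5.06% of them had 1 exon, against 2.19%. These shares are descriptions.

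NRF2 targets had the highest median in AF1 of the 20 gene lists of pathways. Of 39 genes on the list, 35 passed the filter, and all 35 lay above the vehicle mean in AF1. Of the 35, 21 (60%) were called higher and none lower, against 5.22% and 2.59% of all genes. Their median difference was 1.26 in AF1 and 0.02 in AF2, where no member was called. With centring, AF1 kept a median of 1.06 and 18 members called. Hmox1, which encodes heme oxygenase-1 (chromosome 8 of mm10, 75093618 to 75100593), had 82.7 and 86.7 FPKM with vehicle, 4403 FPKM in AF1 and 85.3 FPKM in AF2. AF1 was thus 51.4-fold above vehicle on the log2(FPKM + 1) scale, while AF2 lay between the vehicle libraries.

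NRF2 targets that serve glutathione included the following genes. Gclm and Gclc encode the subunits of glutamate-cysteine ligase, which makes the first step of glutathione synthesis. Gclm had 6.08 and 6.12 FPKM with vehicle, 129 in AF1 and 6.72 in AF2. Gclc had 1.83 and 1.81 FPKM with vehicle, 24.8 in AF1 and 1.68 in AF2. Slc7a11, the cystine carrier of system Xc, had 3.48 and 3.60 FPKM with vehicle, 59.0 in AF1 and 2.87 in AF2. AF1 was high in all 3 genes, whereas in AF2 Gclm was slightly above and Gclc and Slc7a11 slightly below both vehicle libraries. The partner of Slc7a11 in the carrier, Slc3a2, had 337 and 246 FPKM with vehicle, 419 in AF1 and 254 in AF2, and was not called. Gsr, which reduces oxidized glutathione, had 17.4 FPKM in both vehicle libraries, 55.9 in AF1 and 16.5 in AF2.

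The thioredoxin branch held the enzyme that auranofin is known to inhibit. Txnrd1, the cytosolic thioredoxin reductase (chromosome 10, 82833951 to 82897724), had 89.2 and 91.9 FPKM with vehicle, 582 in AF1 and 85.3 in AF2. Its substrate gene Txn1 had 321 and 303 FPKM with vehicle, 360 in AF1 and 336 in AF2, and the mitochondrial pair Txnrd2 and Txn2 differed by 0.32 and 0.36 in AF1. None of these last 3 genes was called. Srxn1, sulfiredoxin, which repairs overoxidized peroxiredoxins, had 18.1 and 17.3 FPKM with vehicle, 385 in AF1 and 17.3 in AF2. Prdx1, a peroxiredoxin, had 687 and 654 FPKM with vehicle, 3075 in AF1 and 695 in AF2. Cat, catalase, had 15.6 and 16.7 FPKM with vehicle, 77.4 in AF1 and 15.4 in AF2. The separation was thus present in genes of very different level.

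Slc40a1, ferroportin, which exports iron from macrophages, is not on the NRF2 list and is named for its rise in AF1. It had 1.95 and 2.18 FPKM with vehicle, 58.6 in AF1 and 1.56 in AF2. Other members of the list handle heme and iron. Slc48a1, a heme transporter, had 28.1 and 28.4 FPKM with vehicle, 143 in AF1 and 29.2 in AF2. Ftl1, the ferritin light chain, had 5377 and 5522 FPKM with vehicle, 15024 in AF1 and 5854 in AF2, and its partner Fth1 had 13243 and 12779 FPKM with vehicle, 19271 in AF1 and 13220 in AF2. Ftl1 was called and Fth1, with a difference of 0.57, was not. Blvrb, biliverdin reductase B, which acts after heme oxygenase, was called with a difference of 1.26.

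Among enzymes of the pentose phosphate pathway and malic enzyme on the list, Pgd, Taldo1 and Me1 were called higher in AF1, with differences of 1.75, 1.19 and 1.73, while G6pdx and Tkt had 0.81 and 0.48. The regulators themselves were looked up after the values of their targets had been seen. Nfe2l2, which encodes NRF2, had 32.7 and 33.4 FPKM with vehicle, 82.2 in AF1 and 29.1 in AF2. Bach1, which encodes a repressor of heme oxygenase, had 15.2 FPKM in both vehicle libraries, 34.5 in AF1 and 13.8 in AF2. Keap1 had 40.7 and 44.0 FPKM with vehicle, 31.1 in AF1 and 43.2 in AF2 and was not called. Nqo1, an NRF2 target in many cells, did not pass the filter in these macrophages.

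**Figure D2:**
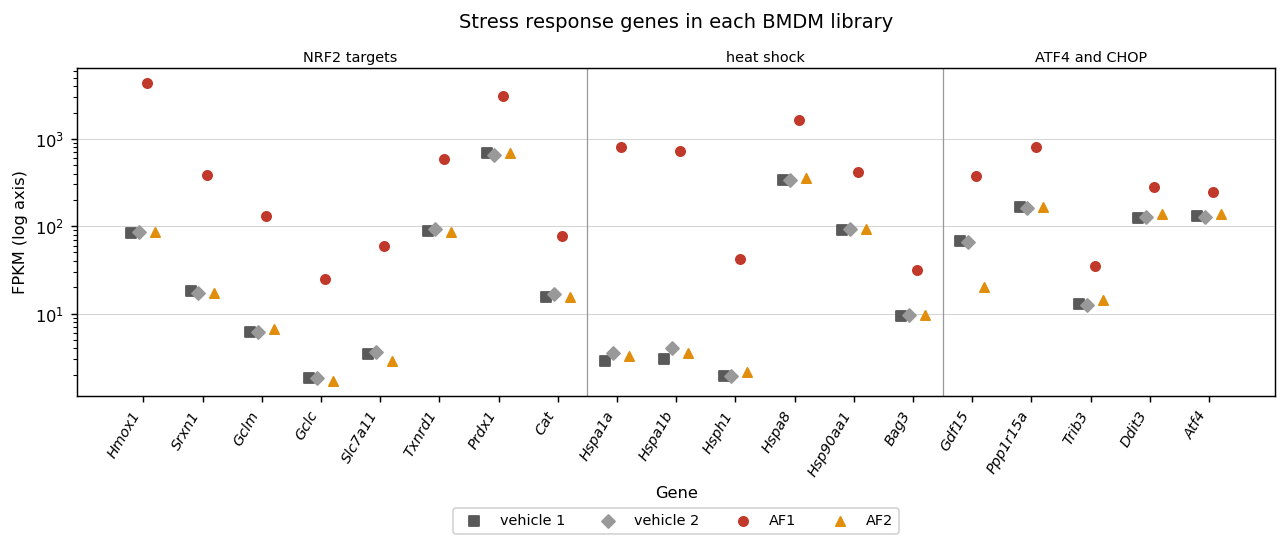
Level in FPKM (y axis, log scale) of 19 stress response genes (x axis) in each of the 4 BMDM libraries, grouped by list. AF1 lies above both vehicle libraries in all 19 genes, and AF2 lies close to the vehicle libraries except in Gdf15, where it lies below them.

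Promoter sequences were looked up for the called NRF2 targets and heat shock genes, because both groups moved together in AF1 and have known elements. The sequences are those of RefSeq on GRCm38.p6, 250 bases before to 50 bases after each start. Of the 21 called NRF2 targets, 16 have an entry, and 4 held the core TGACNNNGC of the antioxidant response element before the start, on either strand. They are shown in the direction of the gene, with the match in capitals, which for the first 3 is the reverse complement of the core.

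Gclm, chr3:122245398-122245457, + strand: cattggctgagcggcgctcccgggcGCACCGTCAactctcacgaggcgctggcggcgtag
Txnrd1, chr10:82859089-82859148, + strand: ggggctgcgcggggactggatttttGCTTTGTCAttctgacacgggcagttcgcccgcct
Prdx1, chr4:116685441-116685500, + strand: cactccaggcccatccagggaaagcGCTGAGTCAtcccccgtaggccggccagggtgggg
Htatip2, chr7:49759438-49759497, + strand: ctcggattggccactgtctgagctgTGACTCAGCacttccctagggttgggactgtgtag

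The matches began 134, 92, 133 and 49 bases before the start. This core is common. It occurred in 12.4% of all promoters in the table, in 17.4% of the tested genes with an entry, in 20.0% of the 375 genes called higher in AF1 with an entry and in 15.6% of the 192 called lower. Over the tested NRF2 list it occurred in 12 of 30 genes with an entry (40.0%), counting the bases after the start as well. Slc7a11 and Cat have an entry without a match, and Hmox1, Gclc and Slc48a1 have no entry. A match is a description of the letters and not a site.

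The heat shock genes had the 2 largest differences of all genes in AF1. Of 31 genes on the list, 28 passed the filter, and 27 lay above the vehicle mean in AF1. Of the 28, 13 (46.4%) were called higher and none lower, against 5.22% and 2.59% of all genes. The median was 0.78 in AF1 and 0.04 in AF2, where no member was called. With centring the median in AF1 was 0.58 and 12 members were called. Hspa1a and Hspa1b, the inducible HSP70 genes on chromosome 17 (34969359 to 34972156 and 34956429 to 34959238), share 70.0% and 70.4% of their stretches of 31 bases with other genes, mainly with each other, so the split between them is uncertain. Their sum was 5.82 and 7.62 FPKM with vehicle, 1518 in AF1 and 6.76 in AF2. AF2 lay between the vehicle libraries and AF1 far above them.

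Other chaperones differed less. Hsph1, a partner of HSP70 that exchanges its nucleotide, had 1.92 and 1.94 FPKM with vehicle, 42.6 in AF1 and 2.13 in AF2. Hspa8, the constitutive HSP70, had 336 and 342 FPKM with vehicle, 1621 in AF1 and 352 in AF2. Hsp90aa1 had 89.4 and 92.4 FPKM with vehicle, 415 in AF1 and 92.0 in AF2. Bag3, a cochaperone of HSP70, had 9.33 and 9.57 FPKM with vehicle, 31.9 in AF1 and 9.73 in AF2. Each of these 4 was several-fold higher in AF1, and AF2 stayed within the range of the vehicle libraries or just above it. Ubb, a polyubiquitin gene, was called with a difference of 1.07. The mitochondrial chaperones Hspd1 and Hspe1 had 0.69 and 0.55, the gene of HSF1 itself had 0.46 and Stip1 had 0.07, none of them called.

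Of the 13 called heat shock genes, 9 have a promoter entry and 4 held a heat shock element core before the start. The cores searched were GAANNTTC and TTCNNGAA, which each read the same on both strands. The windows of Hspa1a and Hspa1b are identical over these 60 bases, and matches are in capitals.

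Hspa1a, chr17:34972227-34972286, and Hspa1b, chr17:34959309-34959368, - strand: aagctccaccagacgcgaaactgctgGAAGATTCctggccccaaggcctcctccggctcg
Hsph1, chr5:149636337-149636396, - strand: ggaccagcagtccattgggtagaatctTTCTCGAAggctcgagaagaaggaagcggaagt
Hspb1, chr5:135887776-135887835, + strand: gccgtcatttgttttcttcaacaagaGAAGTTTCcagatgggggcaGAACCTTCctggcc

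The core GAANNTTC occurred in 11 of the 23 tested heat shock genes with an entry (47.8%), in 7.20% of the genes called higher in AF1, in 5.73% of those called lower and in 6.89% of all tested genes with an entry. The core TTCNNGAA occurred in 6 of the 23 (26.1%), in 7.20% of the genes called higher, in 8.85% of those called lower and in 8.45% of all tested genes. Both shares were thus higher in the list than over all tested genes, whereas those of the genes called higher or lower lay near the share of all tested genes.

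Metallothioneins, which bind metal ions and respond to zinc, cadmium and gold salts, were not called. Mt1 had 60.5 and 62.4 FPKM with vehicle, 122 in AF1 and 67.6 in AF2, a difference of 0.98 in AF1 that lay just under the 2-fold limit. Mt2 had 31.05 and 36.84 FPKM with vehicle, 43.5 in AF1 and 32.5 in AF2. The zinc exporter Slc30a1 had 9.10 and 9.03 FPKM with vehicle, 15.8 in AF1 and 8.24 in AF2. All 4 tested members lay above vehicle in AF1, with a median of 0.66.

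Among the 32 tested glutathione and thioredoxin enzymes outside the NRF2 list, 1 was called higher in AF1 and 1 lower. Each is 3.125% of the list, against 5.22% higher and 2.59% lower of all genes. The median of 0.25 lay close to the shift of all genes. Gss, glutathione synthetase, was the member called higher, from 3.68 and 4.38 FPKM with vehicle to 12.5 in AF1 against 3.77 in AF2. Gpx1, glutathione peroxidase 1, was the member called lower, and is described with the genes called in both libraries. Gpx4, which reduces lipid peroxides, had 167 and 160 FPKM with vehicle, 205 in AF1 and 169 in AF2. Sod1 and Sod2, the cytosolic and mitochondrial superoxide dismutases, had differences of 0.84 and -0.38 in AF1.

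Targets of ATF4 and CHOP, factors of the integrated stress response, were called in part. Of 27 members tested, 9 (33.3%, against 5.22% of all genes) were called higher in AF1 and none lower, with a median of 0.51. Ppp1r15a, which directs the phosphatase of the initiation factor eIF2α, had 167 and 163 FPKM with vehicle, 799 in AF1 and 165 in AF2. Trib3 had 12.8 and 12.6 FPKM with vehicle, 35.1 in AF1 and 14.3 in AF2. Ddit3, which encodes CHOP, had 125 and 127 FPKM with vehicle, 278 in AF1 and 137 in AF2. AF1 was high in these 3 genes. The amino acid genes of the list did not differ alike, as Asns had 0.27, Shmt2 -0.03, Phgdh -0.12 and Psat1 -0.75 in AF1. With centring, 6 members were called higher and 1, Wars, lower.

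Gdf15, a cytokine of stressed cells, differed from vehicle in opposite directions. It had 67.5 and 66.5 FPKM with vehicle, 371 in AF1 and 20.1 in AF2, and was called higher in AF1 and lower in AF2. Of 18 tested chaperones of the endoplasmic reticulum, 1 was called higher in AF1, 5.56% against 5.22% of all genes. This was Dnajb9, from 4.62 and 5.30 FPKM with vehicle to 23.9 in AF1 against 4.85 in AF2, and Hspa5, the main chaperone of this compartment, had a difference of 0.44. Their median of 0.14 in AF1 turned to -0.06 with centring.

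Of 28 tested immediate early genes, 8 (28.6%) were called higher and 1 (3.57%) lower in AF1, against 5.22% and 2.59% of all genes. Their median was 0.50. Jun, which encodes an AP-1 subunit, had 21.7 and 21.8 FPKM with vehicle, 70.3 in AF1 and 23.2 in AF2, and Maff, a small MAF protein that can pair with NRF2, had 13.8 and 14.9 FPKM with vehicle, 62.4 in AF1 and 15.2 in AF2. Dusp2, a phosphatase of MAP kinases, was the member called lower, from 115 and 127 FPKM with vehicle to 53.7 in AF1 against 133 in AF2. Fos and Junb had 0.67 and -0.33 and were not called. Of 14 tested p53 targets, 3 (21.4%, against 5.22% of all genes) were called higher, Gdf15, Pmaip1 and Trp53inp1. Cdkn1a and Mdm2 had 0.11 and 0.27.

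Protein degradation genes lay above the shift of all genes. The 34 tested proteasome subunits had a median of 0.61 in AF1 and 31 of them lay above the vehicle mean. Only Psmd5, Adrm1 and Psmd3 were called, 8.82% of the list against 5.22% of all genes. The median of the subunits was 0.41 with centring. Among 19 autophagy and lysosome genes, Gabarapl1, Ulk1, Nbr1 and Sqstm1 were called higher, 21.1% against 5.22% of all genes. Sqstm1, which encodes the receptor p62 and is also on the NRF2 list, had 2307 and 2292 FPKM with vehicle, 4902 in AF1 and 2426 in AF2. The 18 tested glycolysis genes had a median of 0.69, and 22.2% of them were called higher, against 5.22% of all genes. These were Slc2a1, Slc16a3 and Pfkl, a glucose carrier, a lactate carrier and a phosphofructokinase, besides the near copy Eno1b. Ribosomal protein genes had a median of 0.28 with 1 call, Rps27, which is described with the near copies, and respiratory chain genes had a median of 0.12 with no call, which became -0.08 with centring. Cell cycle genes had a median of 0.33 with no call. Of the 20 tested cholesterol genes, Insig1 and Abca1 were called higher in AF1, 10% against 5.22% of all genes.

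**Figure D3:**
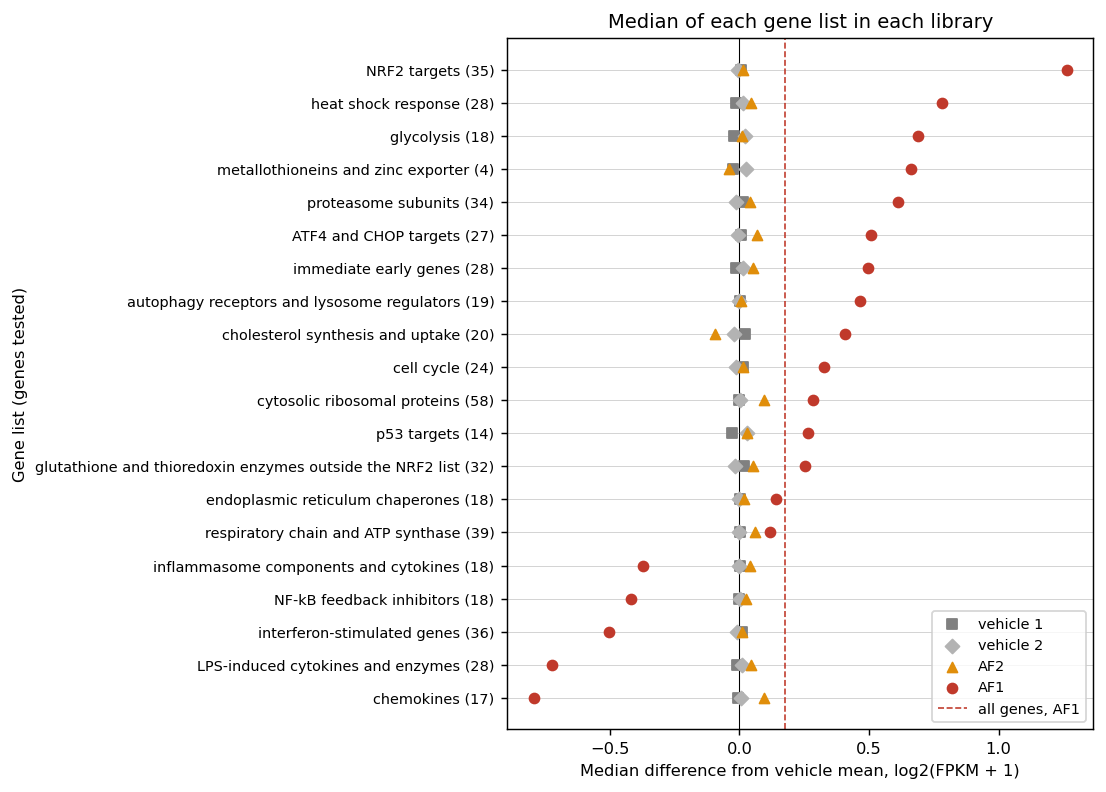
Median difference from the vehicle mean (x axis, log2(FPKM + 1)) of 20 gene lists (y axis, with the number of genes tested) in each of the 4 libraries. The dashed line marks the median of all genes in AF1, 0.18. AF1 runs from -0.79 for the chemokines to 1.26 for the NRF2 targets, while the vehicle libraries and AF2 lie close to 0 throughout.

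Among the 20 lists of pathways, those with medians below vehicle in AF1 on the deposited scale were of inflammatory genes. Among the genes that LPS induces, 28 cytokines and enzymes were tested, with a median of -0.72 in AF1 and 0.05 in AF2. In AF1, 8 of them (28.6%) were called lower and 2 (7.14%) higher, against 2.59% and 5.22% of all genes. With centring 14 were called lower and 2 higher. Il12b, a subunit of IL-12 and IL-23, had 66.9 and 88.2 FPKM with vehicle, 18.0 in AF1 and 66.9 in AF2. Il27 had 784 and 821 FPKM with vehicle, 204 in AF1 and 861 in AF2. Edn1, endothelin, had 83.2 and 84.3 FPKM with vehicle, 15.5 in AF1 and 86.6 in AF2. AF1 was low in each of these, and AF2 lay within 1.5-fold of vehicle.

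The enzymes of this list which are used as readouts of macrophage activation were not alike. Nos2, inducible nitric oxide synthase (chromosome 11, 78920787 to 78960226), had 295 and 300 FPKM with vehicle, 91.2 in AF1 and 289 in AF2, and was called lower in AF1. Ptgs2, cyclooxygenase 2, had 950 and 1031 FPKM with vehicle, 566 in AF1 and 959 in AF2, a difference of -0.80 that was not called. Tnf had 2087 and 2001 FPKM with vehicle, 1790 in AF1 and 1959 in AF2, a difference of -0.19. Il6 had 414 and 417 FPKM with vehicle, 264 in AF1 and 430 in AF2. The members called higher in AF1 were Osm, from 12.2 and 11.3 FPKM with vehicle to 29.3 against 11.2 in AF2, and Arg2, from 1.95 and 2.07 FPKM with vehicle to 6.32 against 1.59 in AF2.

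Chemokines had the lowest median of the pathway lists, -0.79 in AF1 against 0.10 in AF2. Of 17 tested, 6 (35.3%) were called lower and 2 (11.8%) higher in AF1, against 2.59% and 5.22% of all genes. With centring, 8 were called lower and 1 higher. Ccl22, which draws regulatory T cells, had 190 and 210 FPKM with vehicle, 27.6 in AF1 and 235 in AF2. Cxcl11, a ligand of CXCR3, had 107 and 101 FPKM with vehicle, 23.5 in AF1 and 118 in AF2. Ccl3, among the most abundant messages of these cells, had 9908 and 9673 FPKM with vehicle, 4585 in AF1 and 10609 in AF2. In these 3 genes AF1 was low and AF2 lay above both vehicle libraries. The 2 members called higher were Cxcl2 and Cxcl1, of which 1 was called with centring. Cxcl2 had 841 and 793 FPKM with vehicle, 2560 in AF1 and 852 in AF2, and Cxcl1 had 201 and 190 FPKM with vehicle, 431 in AF1 and 190 in AF2. Cxcl3, a close relative of both, had 59.2 and 62.0 FPKM with vehicle, 93.0 in AF1 and 71.1 in AF2 and was not called.

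Of 18 tested inflammasome genes, 3 were called lower in AF1, the cytokines Il1a, Il1b and Il18, and 1 was called higher. The shares were 16.7% lower and 5.56% higher, against 2.59% and 5.22% of all genes. With centring 4 were called lower, among them the DNA sensor Aim2, which had 37.7 and 38.2 FPKM with vehicle, 19.5 in AF1 and 37.3 in AF2. Il1b (chromosome 2, 129364569 to 129371164) had 1593 and 1708 FPKM with vehicle, 796 in AF1 and 1739 in AF2. Il1a had 1514 and 1518 FPKM with vehicle, 616 in AF1 and 1586 in AF2. Il18 had 124 and 116 FPKM with vehicle, 43.1 in AF1 and 130 in AF2. In all 3, AF1 lay below and AF2 above both vehicle libraries.

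The sensor Nlrp3, its adaptor and caspase-1 were not called. Nlrp3 had 215 and 220 FPKM with vehicle, 156 in AF1 and 203 in AF2. Pycard, the adaptor ASC, had 12.21 and 13.88 FPKM with vehicle, 12.81 in AF1 and 14.003 in AF2. Casp1 had 222 FPKM in both vehicle libraries, 176 in AF1 and 235 in AF2. Their differences in AF1 were -0.48, -0.02 and -0.34, and Pycard overlapped the vehicle libraries. Gsdmd, gasdermin D, which forms the pore of pyroptosis, had 80.8 and 80.1 FPKM with vehicle, 47.9 in AF1 and 86.8 in AF2. Hmgb1, an alarmin, had a difference of 0.42. P2rx7, the ATP receptor, had 0.35, and Panx1, a channel that releases ATP, was the member called higher, from 1.13 and 1.17 FPKM with vehicle to 7.58 in AF1 against 0.893 in AF2.

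**Figure D4:**
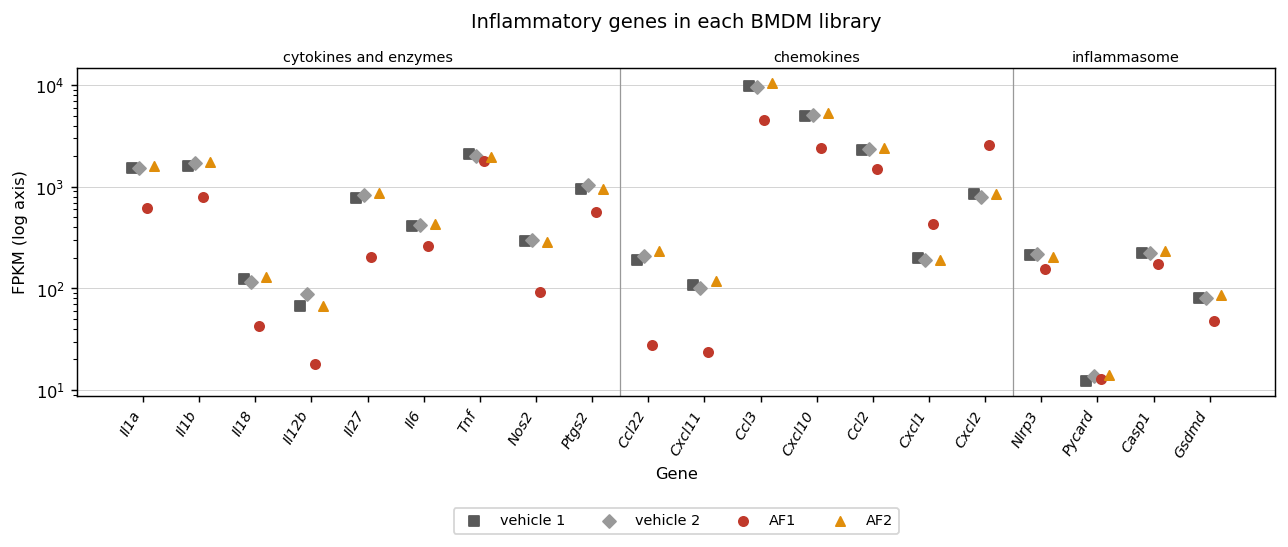
Level in FPKM (y axis, log scale) of 20 inflammatory genes (x axis) in each of the 4 BMDM libraries, grouped as cytokines and enzymes, chemokines and inflammasome genes. AF1 lies below both vehicle libraries in 17 of the 20, above them in Cxcl1 and Cxcl2, and between them in Pycard.

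Of 36 tested interferon-stimulated genes, 34 lay below the vehicle mean in AF1, with a median of -0.51. Iigp1, Isg20 and Gbp2 were called lower, 8.33% of the list against 2.59% of all genes. With centring the median was -0.71 and 6 were called lower, and with quantile normalization they were -0.50 and 3. Ifnb1, the inducing interferon, had 159 and 152 FPKM with vehicle, 130 in AF1 and 166 in AF2, and Isg15 and Rsad2 had differences of -0.04 and -0.18. The list of feedback inhibitors of NF-kB also holds the subunit genes Nfkb1, Nfkb2, Rel and Relb. Its 18 tested members had a median of -0.42. In AF1 5.56% of them were called higher and 5.56% lower, against 5.22% and 2.59% of all genes. Socs1, which restrains cytokine receptors, was called lower, from 137 and 133 FPKM with vehicle to 64.2 in AF1 against 137 in AF2, and Trib1 was called higher. Nfkbia, which encodes IκBα, had 809 FPKM in both vehicle libraries, 578 in AF1 and 847 in AF2 and was not called.

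Among genes whose mean reached 10 FPKM, the 15 called lower in AF1 with the largest differences held further genes of activated macrophages. Fscn1, which bundles actin in dendritic processes, had 21.1 and 28.8 FPKM with vehicle, 3.23 in AF1 and 26.9 in AF2. Il4i1, an amino acid oxidase of myeloid cells, had 70.3 and 83.4 FPKM with vehicle, 11.8 in AF1 and 79.6 in AF2. Cd69, an activation marker, had 736 and 740 FPKM with vehicle, 177 in AF1 and 742 in AF2. Fgl2, Lipg, H2-M2, Mmp14, Slc28a2 and Edn1 were 4.44 to 6.58 times lower in AF1 on the log2(FPKM + 1) scale. The largest fall was that of Gm7030, from 15.5 and 15.7 FPKM to 0 in AF1 and 10.8 in AF2. Next came Gm14085, from 17.6 and 13.0 FPKM with vehicle to 0.018 in AF1 and 15.1 in AF2. Gm7030 shares 68.0% of its stretches of 31 bases with other genes. Gm14085 and Slc28a2, main partners of each other, share 38.6% and 46.2%. The 2 members of the serpin cluster among the 15, Serpina3g and Serpina3f, share 30.2% and 29.2%. The values of these genes thus depend on how reads were divided.

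The 15 called higher held, besides stress genes, Glul, which makes glutamine, with 9.12 and 9.39 FPKM in the vehicle libraries, 114 in AF1 and 9.95 in AF2. Rgcc, a regulator of the cell cycle, had 2.82 and 3.30 FPKM with vehicle, 33.9 in AF1 and 4.75 in AF2. Arl4c, a small GTPase, had 4.18 and 4.15 FPKM with vehicle, 33.4 in AF1 and 4.21 in AF2. Irf8, a transcription factor of the macrophage lineage, looked up after its values had been seen, was lower, from 195 and 228 FPKM with vehicle to 73.1 in AF1 against 225 in AF2.

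The genes called in AF2 were 17, and few of them belonged to the lists above. Several shared their sequence with another gene. Rps27, a ribosomal protein gene, and its near copy Rps27rt exchanged their values between libraries. Rps27 had 1.48 and 223 FPKM with vehicle, 282 in AF1 and 1.09 in AF2, and Rps27rt had 209 and 0.80, then 1.45 and 252. The sum of both was 210 and 224 FPKM with vehicle, 283 in AF1 and 253 in AF2, without any such jump. Atp6v0c, a subunit of the vacuolar proton pump, and Atp6v0c-ps2 behaved alike, with sums of 638 and 624 FPKM with vehicle, 745 in AF1 and 633 in AF2. Eno1b, Mir8114 and Gm12657 were called higher in both AF1 and AF2. They share 87.2%, 100% and 100% of their stretches of 31 bases with other genes. The main partners were Eno1, Glul and H3f3a. Mir8114 overlaps Glul on chromosome 1 (153899926 to 153900036 against 153899929 to 153909723). Gm12657 had 2.49 and 0 FPKM with vehicle, 3.11 in AF1 and 2.83 in AF2. Of the 16 genes called in AF2 with a transcript sequence, 6 (37.5%) share at least 50 percent of their stretches of 31 bases with other genes. Among all genes tested the share was 3.05%. Of the 17, 12 (70.6%) were at least 2-fold apart within the BMDM vehicle libraries or within a group of the HSC libraries, all of which share their treatment, against 0.769% of all genes tested.

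Other genes called in AF2 had no near copy by this measure. Retnlg, a neutrophil marker, had 2.52 and 5.10 FPKM with vehicle, 4.56 in AF1 and 16.1 in AF2. Zbed5 had at most 0.015 FPKM with vehicle, 0.05 in AF1 and 7.02 in AF2. Alb and Lcn5, which are not genes of macrophages, had at most 3.09 FPKM with vehicle and were called on low values. Fam134c, for which no transcript sequence was used here, had 10.8 FPKM in both vehicle libraries, 22.1 in AF1 and 4.07 in AF2, and so, like Gdf15, lay on opposite sides of vehicle in AF1 and AF2.

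Over AF1 and AF2 together, limma on log2(FPKM + 1) found 14 genes that differed by 1.5-fold or more with p, before adjustment, under 0.05, which is 0.152% of the genes tested, 8 of them higher and 6 lower. After Benjamini-Hochberg adjustment limma left 1, Gm12070, with an adjusted p of 0.043, and before adjustment 49 genes had a p under 0.05. In limma the Benjamini-Hochberg count was 2 without a trend and 0 without a filter, among genes above 0 in every library, with quantile normalization and without moderation, where 368, 47, 70 and 242 genes had a p under 0.05 before adjustment. For a single gene, 2 libraries in each group allow a smallest two-sided p of 0.333 in an exact permutation test. Gm12070 is listed at 0 in both vehicle libraries, with 75.3 FPKM in AF1 and 56.5 in AF2. All of its sampled stretches of 31 bases occur in other genes, with Gapdh as the main partner. Gm12070 and Gapdh together had 353 and 354 FPKM with vehicle, 574 in AF1 and 405 in AF2. Gm12070 was between 111 and 120 FPKM in all 4 HSC libraries. In 9 of the 14 genes the share of repeated stretches stayed under 50 percent.

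Gpx1 (chromosome 9, 108339080 to 108340342) had 133 and 124 FPKM with vehicle, 42.1 in AF1 and 32.6 in AF2. In AF1 and AF2 it lay 1.59 and 1.94 below the vehicle mean. Sumo3, a ubiquitin-like modifier, had 6.64 and 7.09 FPKM with vehicle, 21.3 in AF1 and 18.7 in AF2. G3bp2, a stress granule protein, had 47.2 and 46.7 FPKM with vehicle, 28.2 in AF1 and 19.2 in AF2. These 3 genes are described because both auranofin libraries differed from vehicle. The same 3 genes were at least 2-fold apart between the 2 HSC auranofin libraries, with 31.8 and 121 FPKM for Gpx1, 58.4 and 20.4 for Sumo3, and 16.7 and 36.3 for G3bp2, while the HSC vehicle libraries had 39.6 and 38.5, 21.1 and 20.2, and 38.8 and 36.3. The factor between the 2 BMDM groups was 3.44 for Gpx1, 2.91 for Sumo3 and 1.98 for G3bp2, and the factor between the highest and the lowest HSC library was 3.82, 2.88 and 2.32. The cause of these differences was not tested.

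Setdb2, Wdr37 and Sh2b3, also past the thresholds, were less than 2-fold apart within each HSC group. In HSCs Setdb2 was low, with 2.40 and 2.90 FPKM with vehicle and 2.37 and 2.90 with auranofin. Wdr37 had 8.99 and 8.87 FPKM there with vehicle and 8.54 and 8.88 with auranofin. Sh2b3 had 8.81 and 10.4 FPKM in HSCs with vehicle and 22.7 and 23.0 with auranofin. In BMDM Setdb2, a histone methyltransferase (chromosome 14, 59402009 to 59440880), had 37.6 and 35.2 FPKM with vehicle, 20.8 in AF1 and 20.5 in AF2. Its average difference was -0.79, with an unadjusted p of 0.0018 and an adjusted p of 0.721 in limma. Wdr37 had 21.3 FPKM in both vehicle libraries, 15.04 in AF1 and 10.9 in AF2. Sh2b3, an adaptor that restrains cytokine receptors, had 3.06 and 3.34 FPKM with vehicle, 9.77 in AF1 and 7.18 in AF2. No adjusted p of these 3 genes passed the threshold, and they were chosen by the limma thresholds over these libraries. Gvin1, an interferon-induced GTPase, had 29.5 and 31.5 FPKM with vehicle, 13.1 in AF1 and 20.4 in AF2, and shares 99.5% of its stretches of 31 bases with other genes.

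**Figure D5:**
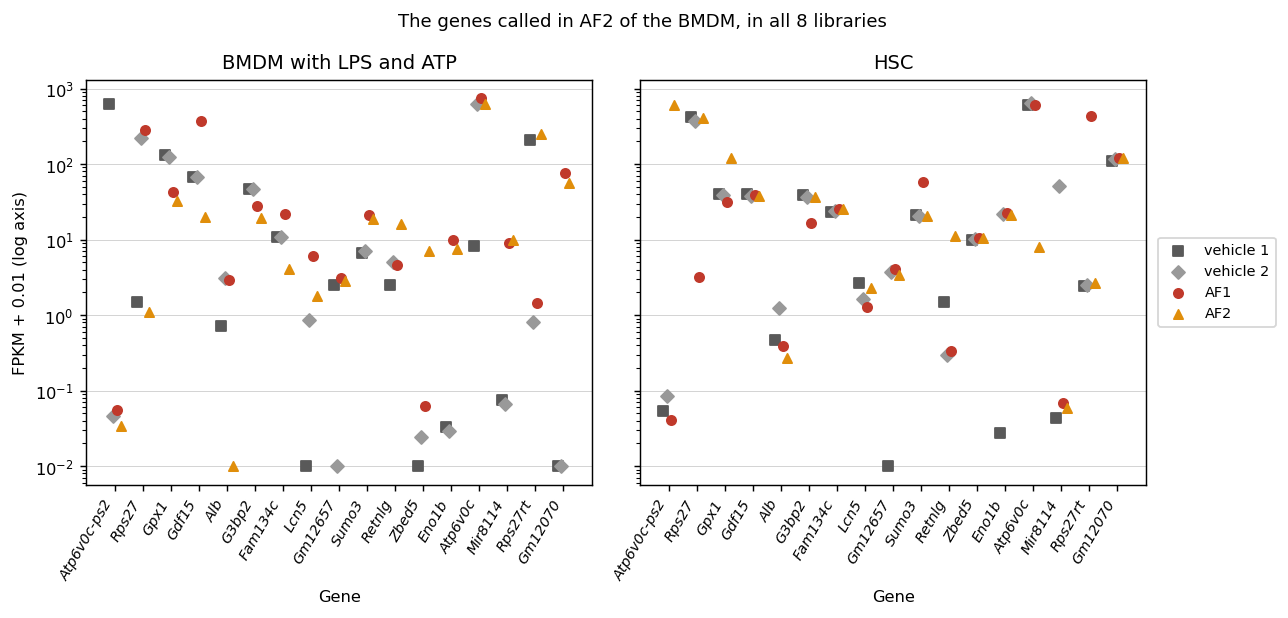
Level (y axis, FPKM + 0.01, log scale) of the 17 genes called in AF2 (x axis), in the 4 BMDM libraries on the left and the 4 HSC libraries on the right, where AF1 and AF2 mark the HSC auranofin replicates 1 and 2. Rps27 and Rps27rt, and Atp6v0c and Atp6v0c-ps2, trade places between libraries in both cell types. Single HSC libraries stand apart in Gpx1, Sumo3 and G3bp2.

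The HSC libraries, at 0.03 µM auranofin for 12 h, are set beside these values without a comparison, since dose, time and cell type differ and the tables were normalized separately. There, Hmox1 had 391 and 368 FPKM with vehicle and 1297 and 1141 with auranofin. Gclm had 40.0 and 34.9 FPKM with vehicle and 121 and 107 with auranofin. Srxn1 had 55.7 and 52.3 FPKM with vehicle and 128 and 118 with auranofin. In these 3 genes the HSC auranofin libraries were close to each other and both lay above vehicle, unlike AF1 and AF2. Hspa1a had 9.06 and 10.3 FPKM with vehicle and 12.7 and 10.2 with auranofin, and Gdf15 had 40.2 and 38.0 with vehicle and 39.1 and 37.7 with auranofin, so that in HSCs their groups overlapped.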

How the data were processed

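Messenger RNA of mouse macrophages was sequenced from TruSeq stranded libraries, and the authors deposited FPKM values per gene in 1 table for each cell type. The submitters' processing notes name CASAVA, FastQC 0.11.7, Trimmomatic 0.38, HISAT2 2.1.0, StringTie 1.3.4d and mm10. The tables were normalized separately and give no read counts. Depth was estimated from the steps of the low values, of which 45.6% to 50.2% came within 0.1 of a whole fragment, so it is approximate. Values were taken as log2(FPKM + 1) for genes whose mean reached 1 FPKM, a scale that understates the change of low genes. A gene was called in an auranofin library when it lay beyond both vehicle libraries and at least 2-fold from their mean. Both libraries together were compared with limma 3.58.1 in R 4.3.3 (trended moderation, Benjamini-Hochberg adjustment over all genes, calls at 1.5-fold and an unadjusted p of 0.05), which was tested on simulated data. Tables and plots were made in Python 3.11.15 with numpy 2.4.6, pandas 2.3.3 and matplotlib 3.10.9.

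The genes named were the 15 largest rises and falls called in AF1 with a mean of at least 10 FPKM, the 5 largest each way in AF2, up to 10 genes called alike in both, the genes past the limma thresholds, up to 6 members of each gene list with the largest differences and those that define it, genes assayed in the study, and cell markers. Exceptions are named as such, and values are given for those the text turns on. The genes and lists were chosen with earlier results of these data known. No libraries were copies of each other. Near copies were found as shared stretches of 31 bases between GENCODE transcripts of different genes, over a fixed sample of these stretches. Other pseudocounts, filters, scalings, folds and tests, the replicate number as a block and each library left out were tried. Leaving out near copies, and quantile normalization for the gene lists, were added after the data had been seen. Some members of the lists are not reported here.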

Additional observations from a re-analysis of the deposited data

Results flagged for a closer look

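Among the named genes, 2 had every auranofin library above both vehicle libraries in BMDM and below both vehicle libraries in HSCs. Whether the cell types differed was not tested, and dose and time differed as well. Atp6v0c lay 3.18 above vehicle in BMDM and 3.09 below it in HSCs on the log2(FPKM + 1) scale. It had 8.26 and 623 FPKM with vehicle, 745 in AF1 and 633 in AF2, and in HSCs 613 and 641 FPKM with vehicle and 611 and 7.91 with auranofin. Both values thus rest on 1 low library, in which its near copy Atp6v0c-ps2 was high. The small nucleolar RNA Snora31 lay 0.75 above vehicle in BMDM and 0.35 below it in HSCs. It had 0.867 and 0.646 FPKM with vehicle, 2.51 in AF1 and 1.46 in AF2, and in HSCs 6.13 and 6.70 FPKM with vehicle and 3.89 and 5.96 with auranofin.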

How the results depend on the processing

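The 14 genes past the limma thresholds in both libraries became 27 with a pseudocount of 0.1, 22 without a filter, 8 at a mean of at least 5 FPKM, 7 without moderation, 7 at 2-fold and 9 without near copies. Leaving out each library gave 14 to 2122, with 26 without vehicle replicate 2, 31 without AF1 and 2122 without AF2, where the lone library is assumed to vary like the other group. With the replicate number as a block there were 42. Differences between replicates 1 and 2 of vehicle and of auranofin correlated at -0.06 across genes. This cannot tell whether the replicates are paired, since AF1 and AF2 were much further apart than the vehicle libraries. The 721 calls in AF1 became 1085 with a pseudocount of 0.1, 479 at a mean of at least 5 FPKM, 2141 at 1.5-fold, 89 at 4-fold and 5997 with limma of 1 library against 2, and were 742 to 747 with a vehicle library left out. The 17 calls in AF2 became 31, 11, 49 and 8 under the first 4 of these settings and 11 without near copies, and were 24 to 38 with a vehicle library left out, 38 without vehicle replicate 2. The 36 genes between the vehicle libraries became 58 with a pseudocount of 0.1 and 17 at a mean of at least 5 FPKM. With centring, the medians of the endoplasmic reticulum chaperones and the respiratory chain in AF1 turned to -0.061 and -0.084. Of 63 named genes in AF1, 2 were no longer called with centring and 3 with quantile normalization, and none changed direction. With 2 libraries in a group that were unlike each other, the data cannot tell an effect of auranofin from a difference between cultures or libraries.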

Other observations

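The gene groups here were put together after their values had been seen, and are given as values. Of 9 tested alpha and beta tubulin genes, 7 (77.8%, against 5.22% of all genes) were called higher in AF1, with a median of 1.54. Tuba4a had 4.996 and 5.212 FPKM with vehicle, 26.9 in AF1 and 5.45 in AF2, and Tubb2a had 44.8 and 44.1 FPKM with vehicle, 149 in AF1 and 44.9 in AF2. Tubb5 and Tubb6, with differences of 0.57 and 0.78, were the members not called. The cytoplasmic actins went the other way. Actb had 3587 and 3687 FPKM with vehicle, 1004 in AF1 and 3574 in AF2, and Actg1 had 1063 and 1078 FPKM with vehicle, 435 in AF1 and 1056 in AF2.

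Of 9 tested host genes of small nucleolar RNAs, 3 (33.3%, against 5.22% of all genes) were called higher in AF1, with a median of 0.78. Snhg1 had 3.06 and 2.59 FPKM with vehicle, 17.7 in AF1 and 3.64 in AF2. The sperm protein genes Prm1, Prm2 and Tnp2, which neighbour Socs1 on chromosome 16, were called lower in AF1 together with it. Prm2 had 6.71 and 2.02 FPKM with vehicle, 0.457 in AF1 and 2.04 in AF2, so that the vehicle libraries were themselves apart.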
